A study of Homo sapiens with 6 samples.

Results

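The PYHIN genes MNDA, IFI16, AIM2 and PYHIN1 are a human family of DNA-binding proteins, and each had 1 row in the count table, so 4 of 34371 features are described here. The members were taken by family, and MNDA was chosen by its lower counts after SPNS2 was added, so its difference between groups is given as a description with no test. The cells were ME-1, a human acute myeloid leukaemia line that carries the CBFB::MYH11 fusion. In 3 libraries the cells held an empty control vector, and in the other 3 they held a vector for SPNS2, a membrane transporter that exports sphingosine-1-phosphate. Transduced cells of both kinds had been selected before RNA was taken, so all 6 libraries share transduction and selection. Nothing in the labels ties the libraries to separate cultures, and the p-values measure only the spread between these libraries, which may be technical. Whether fewer cells carried a transcript or each cell carried less of it cannot be told apart in bulk RNA.

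PYHIN proteins usually join an N-terminal pyrin domain, which binds other pyrin domains, to HIN domains that bind DNA. AIM2 senses DNA in the cytosol and gathers the adaptor PYCARD and caspase-1 into an inflammasome. IFI16 binds DNA in the nucleus and cytosol and can signal through STING. MNDA, the myeloid cell nuclear differentiation antigen, is a nuclear protein of monocytes and granulocytes, and PYHIN1 is best known from lymphocytes. The family takes its older name, the interferon-inducible HIN-200 genes, from its response to interferon.

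Library totals ran from 28605187 to 38489992 counts. The row for the vector's SPNS2 sequence held 9, 3 and 0 counts in the control libraries against 25283, 24792 and 25752 counts in the SPNS2 libraries. A separate row for the SPNS2 gene held 1723, 1199 and 1319 counts in the controls and 1611, 1548 and 1773 with SPNS2. That row was called higher with SPNS2 (log2 fold change 0.25, adjusted p = 0.00166 by edgeR). Of 10 genes that mark a myeloid leukaemia line, 9 were tested, and all 9 were present in both groups. Among them 2 rose and 3 fell, 55.6% called at an adjusted p under 0.05, against 24.5% of all tested features. MPO stood at 26129 and 25993 CPM (the count relative to library size, used for all levels below) and SPI1 at 208 and 201 CPM with the empty vector and SPNS2, neither called. KIT rose by 0.55 and PTPRC by 0.26 on the log2 scale, while CD33 fell by 0.71, CD34 by 0.25 and PRTN3 by 0.17 (edgeR adjusted p = 3.68e-08 to 0.0289), and their part in the members' values was not tested. The PRTN3 call was lost when control library 2 or 3 or any single SPNS2 library was left out (adjusted p = 0.0522 to 0.108). AZU1 had 386 counts in SPNS2 library 2 and 0 in the other 5 libraries. Markers of red cells and platelets (6 genes) summed to at most 0.246 CPM in any library and those of fibroblasts (4 genes) to at most 0.216 CPM. CD14, a monocyte surface marker, was at 0.0307 and 0.0106 CPM, and S100A12 and FCGR3A had no counts, so these 3 markers of mature monocytes and granulocytes were at or near 0 in both groups.

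The members lie side by side on chromosome 1, and their start regions were read from RefSeq (GRCh38.p14, used here for names, order and these windows only, since no build is named for the counts). The 4 genes matched 5 windows, as IFI16 has 2 annotated starts. Windows of MNDA, PYHIN1 and the downstream IFI16 start are shown because they align with each other although the 3 genes differ in level. Each runs from 250 bases before to 50 bases after the start, 5′ to 3′ on the gene's strand, and capitals mark matches to the motifs named below.
MNDA, chr1:158831101-158831400, + strand: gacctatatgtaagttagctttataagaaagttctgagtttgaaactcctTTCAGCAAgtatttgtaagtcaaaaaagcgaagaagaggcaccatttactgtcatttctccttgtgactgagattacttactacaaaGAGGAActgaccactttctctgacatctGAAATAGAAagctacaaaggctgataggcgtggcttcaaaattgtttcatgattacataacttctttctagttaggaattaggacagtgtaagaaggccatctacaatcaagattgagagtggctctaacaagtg
PYHIN1, chr1:158931302-158931601, + strand: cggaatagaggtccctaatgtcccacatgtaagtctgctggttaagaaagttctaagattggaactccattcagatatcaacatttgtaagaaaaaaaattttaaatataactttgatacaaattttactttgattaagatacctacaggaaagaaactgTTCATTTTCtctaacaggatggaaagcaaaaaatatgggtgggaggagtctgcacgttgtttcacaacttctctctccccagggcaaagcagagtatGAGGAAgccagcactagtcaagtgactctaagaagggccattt
IFI16 downstream start, chr1:159009657-159009956, + strand: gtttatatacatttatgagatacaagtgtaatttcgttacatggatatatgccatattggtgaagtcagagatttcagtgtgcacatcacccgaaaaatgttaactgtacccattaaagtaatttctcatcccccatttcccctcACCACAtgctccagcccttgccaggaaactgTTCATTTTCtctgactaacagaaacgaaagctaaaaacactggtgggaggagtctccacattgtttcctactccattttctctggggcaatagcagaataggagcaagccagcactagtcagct

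The PYHIN1 and downstream IFI16 windows aligned over 129 columns with 79.8% identity and shared an unbroken run of 19 bases, gaaactgTTCATTTTCtct. MNDA aligned with the downstream IFI16 window over 77 columns (72.7% identity) and with PYHIN1 over 74 columns (77.0%). AIM2 shared no run longer than 10 bases with any other member's window. GC content was 37.0% for MNDA and 41.7% for the downstream IFI16 window, against a median of 58.7% over 35116 RefSeq windows.

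Both strands were searched for 6 motifs. The core of the interferon-stimulated response element (ISRE), GAAANNGAA, was found in 4 of the 5 members' windows and in 8.11% of all RefSeq windows. With the start base as 0, the match began at -85 in MNDA (GAAATAGAA) and, on the opposite strand, at -90 in PYHIN1, -74 in downstream IFI16 and -189 in AIM2. In PYHIN1 and IFI16 the match lies inside the shared run printed above, and the MNDA match has other letters. The PU.1 letters GAGGAA were in MNDA (at -113) and PYHIN1 (at 7), and in 27.9% of all windows. RUNX letters (TGTGGT, 13.1% of windows) were in both IFI16 windows, a C/EBP match (TTGCNNAA, 10.5%) in MNDA and an AP-1 match (TGANTCA, 7.71%) in AIM2. The STAT letters TTCNNNGAA (7.66% of windows) were in none of the members' windows. ISRE, PU.1, RUNX, C/EBP, AP-1 and STAT matches in the members did not overlap each other, and a match describes letters only.

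**Figure D1:**
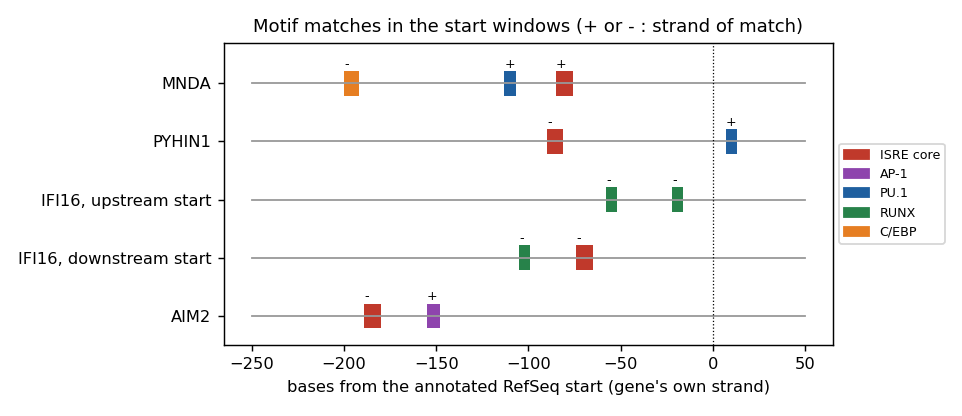
Motif matches (coloured bars, width to scale) along the 5 start windows of the PYHIN genes; the x axis is the distance in bases from the annotated start and the sign above a bar is the strand. ISRE core matches begin at -85, -90 and -74 in MNDA, PYHIN1 and the downstream IFI16 window, and at -189 in AIM2.

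With SPNS2, MNDA was lower, IFI16 rose slightly, PYHIN1 stayed near the detection limit and AIM2 was not detected. IFI16 made up nearly all of the family's RNA in both groups. Of the 4 members, 3 passed the filter on low counts. An adjusted p under 0.05 by edgeR called 24.5% of 13308 features tested, 11.9% higher and 12.6% lower with SPNS2, so a single call is common in this comparison.

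MNDA (ENSG00000163563) had 80, 67 and 61 counts in the empty vector libraries and 23, 24 and 25 counts in the SPNS2 libraries. Its levels were 2.07, 2.35 and 1.89 CPM in the controls against 0.709, 0.764 and 0.741 CPM. Every SPNS2 library lay well below every empty vector library, and the SPNS2 libraries lay close together. A lack of overlap, in either direction, held for 40.1% of tested features. The means were 2.11 ± 0.232 and 0.738 ± 0.0274 CPM (SD, n = 3 each). The fitted log2 fold change was -1.51 (SE 0.182, 95% interval -1.90 to -1.11), which is 2.84-fold lower. The interval makes no allowance for the choice of MNDA by its fall and is not a test. By counts pooled over libraries, 208 against 72, the ratio of levels was also 2.84, with an exact 95% interval of 2.16 to 3.77 that covers counting error only.

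The low counts of MNDA set the precision of this value. Counting error alone gives an SD of 0.254 CPM at the empty vector level, and the observed SD was 0.232 CPM. In SPNS2 the observed SD of 0.0274 CPM was below the 0.151 CPM that counting error gives, so the tight spread of those 3 libraries is closer than single libraries of this depth can resolve. By mean CPM, MNDA stood at the 14.1 percentile of tested features. Of all tested features, 22 had a fitted log2 fold change as low as that of MNDA or lower, itself included. In 6 fits that each left out 1 library its log2 fold change ran from -1.58 to -1.42.

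IFI16 (ENSG00000163565) was the abundant member, with 5661, 4334 and 4865 counts in the empty vector libraries and 5467, 5282 and 5834 counts with SPNS2. Its levels were 147, 152 and 151 CPM in the control libraries and 169, 168 and 173 CPM in the SPNS2 libraries. The groups did not overlap, which held for 40.1% of tested features. The means were 150 ± 2.82 and 170 ± 2.68 CPM (SD, n = 3 each), a rise of 1.13-fold. The log2 fold change was 0.18 (SE 0.0275, 95% interval 0.12 to 0.24, adjusted p = 0.000827 by edgeR). It was called in each of 13 alternative fits, with log2 fold changes of 0.17 to 0.19. IFI16 stood at the 92.2 percentile of tested features by mean CPM.

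PYHIN1 (ENSG00000163564) had 13, 7 and 8 counts in the control libraries and 12, 10 and 8 in the SPNS2 libraries. Its levels were 0.337, 0.246 and 0.248 CPM in the controls against 0.370, 0.318 and 0.237 CPM, so the groups overlapped. The log2 fold change was 0.13 (SE 0.386, adjusted p = 0.843 by edgeR). The 95% interval of -0.72 to 0.98 is wide, and a difference was not detectable at this depth. Without SPNS2 library 1 its log2 fold change was -0.02. The lymphocyte markers CD2, CD5 and MS4A1 had no counts. The sum over 9 T and NK cell genes was 7.78 to 8.04 CPM in the controls and 9.04 to 9.64 CPM in the SPNS2 libraries, and its part in the PYHIN1 value was not tested.

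AIM2 (ENSG00000163568) had 0 counts in all 6 libraries. A count of 0 over the 3 libraries of a group allows up to 0.0302 CPM in the controls and 0.0307 CPM in the SPNS2 group (3 counts over the group, counting error only), and no fold was computed. The RNA of the cytosolic DNA sensor of the family was below detection in both groups.

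**Figure D2:**
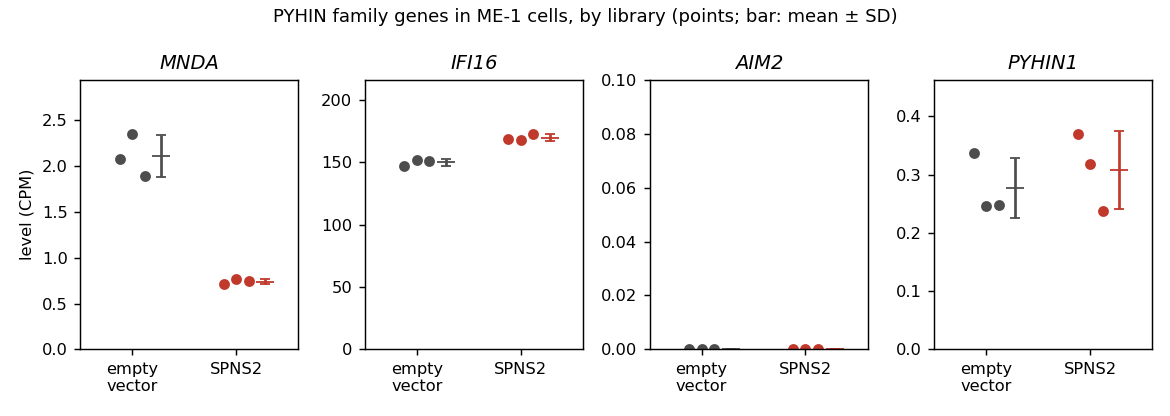
Level in CPM (y axis, a separate scale from 0 for each gene) of the 4 PYHIN genes in 3 empty vector and 3 SPNS2 libraries; points are libraries and bars are mean ± SD. MNDA is at 2.11 and 0.738 CPM without overlap, IFI16 is at 150 and 170 CPM, PYHIN1 overlaps between groups and AIM2 is at 0.

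Levels of different genes were compared per kilobase of the longest protein-coding GENCODE 29 transcript. The order was IFI16, MNDA, PYHIN1 and AIM2 in both groups, and no neighbours of the first 3 overlapped. With the empty vector, IFI16 was at 52.3 ± 0.985, MNDA at 1.20 ± 0.132 and PYHIN1 at 0.133 ± 0.0250 CPM per kilobase (SD, n = 3 each). With SPNS2 these levels were 59.3 ± 0.934, 0.421 ± 0.0156 and 0.148 ± 0.0322 CPM per kilobase. MNDA thus moved from 9.04 times to 2.84 times the PYHIN1 level. IFI16 made up 97.5% ± 0.234 of the family's per-kilobase signal with the empty vector and 99.0% ± 0.0613 with SPNS2, while MNDA made up 2.24% ± 0.228 and 0.704% ± 0.0284.

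Setting MNDA against IFI16 within a library removes the scaling of libraries, though IFI16 itself rose. There were 14.1, 15.5 and 12.5 MNDA counts per 1000 IFI16 counts in the empty vector libraries and 4.21, 4.54 and 4.29 in the SPNS2 libraries. The ratio was low in all 3 SPNS2 libraries and no library of one group reached the range of the other. The members are related in sequence, so their transcripts in GENCODE 29 were compared by words of 31 bases. None of 2056 such words of MNDA occurred in a transcript of another gene. IFI16 and PYHIN1 shared 25 words, of 5282 and 3483. In all, 193 words of PYHIN1 (5.54%) occurred in a transcript of some other gene. IFI16 had far more counts than PYHIN1, and how much of the low PYHIN1 count could come from other genes was not tested.

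**Figure D3:**
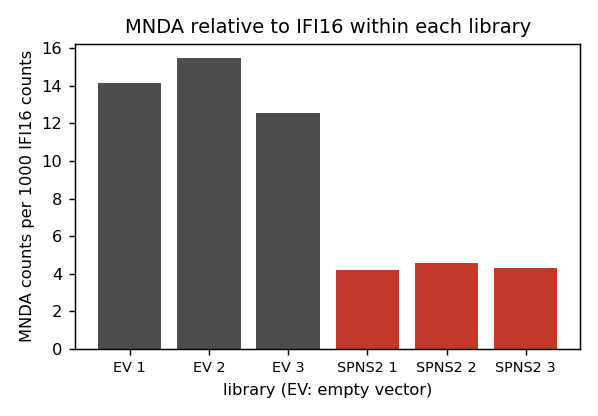
MNDA counts per 1000 IFI16 counts (y axis, from 0) in each of the 6 libraries (bars; EV, empty vector). The empty vector libraries stand between 12.5 and 15.5 and the SPNS2 libraries between 4.21 and 4.54.

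Other genes with a profile like that of MNDA were ranked over the 6 libraries. The measure was the root mean square distance between log2 CPM values, each gene centred on its own mean, among 11836 genes with a mean of at least 1 CPM. The nearest were SRPX (distance 0.0955), EDIL3 (0.139), TAL1 (0.154), LCP1 (0.171) and KIAA1217 (0.175). EDIL3 is a secreted matrix protein, TAL1 a transcription factor of blood stem and erythroid cells, and LCP1 the leukocyte actin bundler L-plastin. Each was lower with SPNS2 in every library, with log2 fold changes of -1.37, -1.37, -1.23, -1.14 and -1.22 in the order above. Likeness to MNDA chose these genes, so their values are a description. SRPX had 909 to 1158 counts per control library and LCP1 had 2864 to 3777, far more than MNDA.

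**Figure D4:**
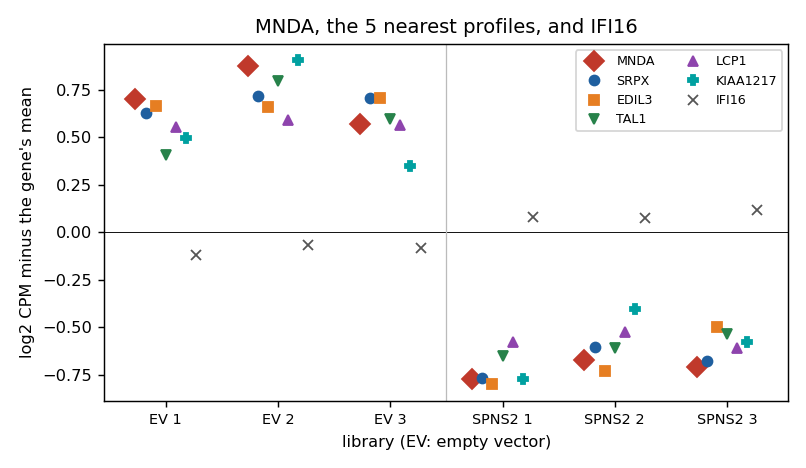
Log2 CPM minus each gene's mean (y axis) in the 6 libraries (x axis; EV, empty vector) for MNDA, the 5 genes nearest to it and IFI16. The 6 nearest profiles lie above 0 in every empty vector library and below 0 in every SPNS2 library, and IFI16 lies the other way round within 0.121 of its mean.

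Genes around the cluster were mostly silent. Of 21 protein-coding neighbours in RefSeq order (10 on each side, with PYDC5 between PYHIN1 and IFI16), 20 had a row, 13 had no count in any library and 2 passed the filter; PYDC5 was not analysed here. The 11 olfactory receptor genes among them had at most 38 counts each over the 6 libraries. The IgE receptor gene FCER1A and the chemokine receptor gene ACKR1, next after AIM2 and CADM3, had no counts. DUSP23, a small phosphatase gene, was at 21.6 and 21.5 CPM (adjusted p = 0.987 by edgeR). SLAMF8, a myeloid surface receptor, rose from 1.20 to 1.92 CPM (log2 fold change 0.68, adjusted p = 0.0252). The call of SLAMF8 was lost on leaving out control library 1 (adjusted p = 0.0724) or 3 (0.0693) or the third SPNS2 library (0.107), and by DESeq2 (0.0625). Neither of the 2 measurable neighbours was called lower.

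Genes that work with the family were taken from 7 lists, chosen with earlier results of these data known. All 13308 tested features had a median log2 fold change of 0.0026.

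The inflammasome list holds AIM2's partners, other sensors and their regulators. Of 18 tested (23 listed), 4 rose, 1 fell and 13 were not called; the 27.8% called was near the 24.5% of all tested features, with a median log2 fold change of 0.05. PYCARD, the adaptor that AIM2 binds, was at 40.8 ± 0.977 and 40.6 ± 4.02 CPM, and CASP1 at 4.41 ± 0.108 and 5.34 ± 0.462 CPM (SD, n = 3 each; adjusted p = 0.971 and 0.0834 by edgeR). IL18, a cytokine that caspase-1 matures, stood at 10.5 ± 0.493 CPM and rose to 15.9 ± 0.875 CPM (by 0.60 on the log2 scale, adjusted p = 0.000105), while IL1B was at 0.0661 and 0.0611 CPM. TXNIP rose by 0.14, CASP8 by 0.18 and CASP4 by 0.11 on the log2 scale, and DPP9, which restrains NLRP1 and CARD8, fell by 0.11. In this list 3 genes were called without empty vector library 2 or any single SPNS2 library. DPP9 lost its call when control library 2 or 3, or SPNS2 library 2 or 3, was left out (adjusted p = 0.0568 to 0.0852). CASP4 lost it when control library 1 or 2 or any single SPNS2 library was left out (0.0643 to 0.132), and CASP8 without SPNS2 library 1 (0.0606).

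Cytosolic DNA sensing genes, the setting of IFI16, leaned slightly lower. Of 20 tested (23 listed, STING1 was not analysed here), 1 rose and 6 fell, with a median of -0.09. The share called was 35.0%, against 24.5% of all tested features. CGAS, the enzyme that makes the STING ligand, was at 23.7 ± 0.522 and 23.3 ± 1.02 CPM and TBK1 at 16.5 ± 0.854 and 17.3 ± 0.364 CPM, neither called. XRCC6 (Ku70) fell by 0.17, PRKDC, the DNA-dependent protein kinase, by 0.15 and RNASEH2C, a subunit of ribonuclease H2, by 0.15 on the log2 scale (adjusted p = 0.00033, 0.00131 and 0.0044 by edgeR). TRIM56, an E3 ubiquitin ligase, rose by 0.17. The other falls were SAMHD1, DDX41 and RNASEH2A, and each lost its call in some fits with 1 library left out. SAMHD1 lost it without any single control library, or SPNS2 library 1 or 3 (adjusted p = 0.0552 to 0.161). DDX41 lost it without SPNS2 library 1 (0.0531) and RNASEH2A without SPNS2 library 2 (0.0565).

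Interferon signalling was examined because the family responds to it. Of 16 tested receptor and signalling genes (17 listed, IRF9 was not analysed here), 7 rose and 2 fell, with a median of 0.09. The share called was 56.2%, against 24.5% of all tested features. IRF1 rose from 30.4 ± 1.09 to 41.8 ± 1.68 CPM, STAT2 by 0.26 and JAK2 by 0.34 on the log2 scale. IRF8, a factor of monocyte development, was at 14.6 ± 1.05 CPM and fell by 0.58 on the log2 scale to 9.73 ± 0.208 CPM (n = 3 per group, SD; edgeR adjusted p = 0.000185). IRF7 fell by 1.08 on the log2 scale (adjusted p = 0.044). Leaving out control library 3 ended that call (log2 fold change -0.51, adjusted p = 0.178), as did leaving out each SPNS2 library in turn (0.0522 to 0.147), after which only IRF8 fell. Without SPNS2 library 3 only 5 genes of this list were called, 4 higher and 1 lower.

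Among interferon-stimulated genes 20 of 26 tested (30 listed) rose and none fell, with a median of 0.60. The share called was 76.9%, against 24.5% of all tested features. RSAD2, the antiviral enzyme viperin, rose by 1.31 and IFIT3 by 0.87 on the log2 scale. IFI6 rose by 0.62 and TRIM22 by 0.57. These 4 genes had the smallest p of the list, and IFI16 rose by less than each of them. ISG15, IFI35, SAMD9 and BST2, none of them called, had lower log2 fold changes than IFI16 (0.1763, 0.1416, 0.1045 and -0.0498 against 0.1806). MNDA, also counted among interferon-inducible genes, was lower. The difference between members and this list was not tested.

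Of 7 genes for proteins reported to bind MNDA or IFI16 or to depend on MNDA, 2 fell and 1 rose, with a median of -0.05. The share called was 42.9%, against 24.5% of all tested features. Nucleolin (NCL), a nucleolar protein that binds MNDA, fell from 716 ± 16.8 to 634 ± 14.4 CPM, and BRCA1, a partner of IFI16, from 51.9 ± 1.67 to 43.0 ± 0.839 CPM (SD, n = 3 each; adjusted p = 0.000729 and 0.000348 by edgeR). NPM1, YY1 and MCL1 were not called, with log2 fold changes between -0.07 and 0.0030. RB1 rose by 0.13 (adjusted p = 0.0364). That call was lost when control library 1 or 3 or any single SPNS2 library was left out (adjusted p = 0.0601 to 0.15), so no gene of the list rose there.

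Maturation genes of monocytes and granulocytes, the cells in which MNDA is best known, went both ways. Of 21 tested (33 listed), 9 rose and 5 fell, 66.7% called against 24.5% of all tested features, with a median of 0.12. HK3, a myeloid hexokinase, was at 3.16, 2.88 and 2.76 CPM with the empty vector and 0.833, 0.541 and 1.16 CPM with SPNS2 (log2 fold change -1.79, adjusted p = 0.000259 by edgeR). CSTA, a cysteine protease inhibitor, was at 3.24, 4.35 and 4.84 CPM and then 1.63, 1.40 and 1.63 CPM (log2 fold change -1.41, adjusted p = 0.000214). All 5 genes that fell had lower levels in every SPNS2 library than in any empty vector library, as MNDA did. Each, MNDA included, was taken for its fall, so this lack of overlap is no separate evidence. Such a lack of overlap, in either direction, held for 40.1% of tested features. ITGAX (CD11c) fell by 0.50, the Fc receptor FCGR1A by 0.29 and lysozyme (LYZ) by 0.32 on the log2 scale. The call of LYZ was lost on leaving out any single control library, or SPNS2 library 1 or 2 (adjusted p = 0.0556 to 0.127). In the other direction SERPINA1 rose by 0.48, CD68 by 0.49 and CSF3R, the G-CSF receptor, by 0.26. The largest called rises were TYROBP, from 0.356 to 0.758 CPM, and CSF1R, from 3.82 to 7.04 CPM. Their log2 fold changes were 1.09 and 0.88 (adjusted p = 0.0341 and 0.000142 by edgeR). The TYROBP call was lost when control library 1 or 3, or SPNS2 library 2 or 3, was left out (adjusted p = 0.0715 to 0.112).

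Of 11 tested myeloid transcription factors (14 listed), 2 fell and 1 rose, with a median of -0.03. The 27.3% called was near the 24.5% of all tested features. CEBPB fell from 33.2 ± 2.55 to 27.6 ± 0.0753 CPM and CEBPD from 131 ± 4.20 to 116 ± 0.404 CPM (SD, n = 3 each). RUNX1, the DNA-binding partner of CBFB, rose by 0.13, and 2 factors rose without SPNS2 library 3. SPI1, which encodes PU.1, was at 208 ± 2.57 and 201 ± 5.25 CPM (adjusted p = 0.246 by edgeR). KLF4 had no counts.

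**Figure D5:**
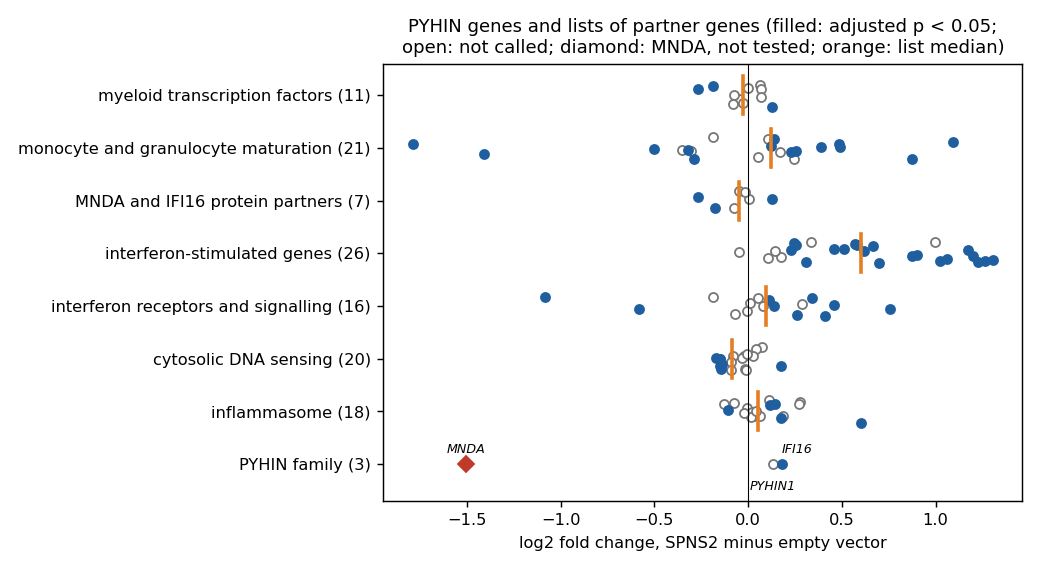
Log2 fold change, SPNS2 minus empty vector (x axis), of every tested gene of the PYHIN family and of 7 lists (number tested in brackets); filled points passed an adjusted p of 0.05, open points did not, the diamond is MNDA, which was not tested, and orange bars are list medians. MNDA at -1.51 lies below every listed gene except HK3 at -1.79, and the interferon-stimulated genes have the highest median, 0.60.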

How the data were processed

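Polyadenylated RNA of 6 libraries (3 empty vector, 3 SPNS2, grouped by title) had been made into stranded TruSeq libraries, per the labels' protocols. The values, as deposited, are estimated counts for each gene. Salmon is the one tool listed, per the submitters' processing notes, with no version. Genome build and annotation: not given in the sources used here. All deposited values were whole.

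Counts were filtered with filterByExpr (minimum count 10, minimum total 15), scaled by TMM and tested over all features with the edgeR quasi-likelihood test (edgeR 4.0.16, R 4.3.3), with group as the only term, Benjamini-Hochberg adjustment and a threshold of 0.05. Standard errors were derived from the fold change and F. CPM uses TMM-scaled library totals. Replicates differed beyond sampling noise (chi-square per degree of freedom 3.02 to 5.84). Alternatives were DESeq2 1.42.0, limma voom (3.58.1), 2 other scalings, 2 other filters, a replicate block and leaving out each library. The procedure was tested on simulated data.

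The members and lists were chosen with earlier results of these data known. Named genes were the 4 members, up to 4 genes with the smallest p of each list, every gene behind a count of 5 or fewer, neighbours past the filter and the 5 genes nearest to MNDA. PYCARD, CASP1, IL1B, CGAS, TBK1, MPO, SPI1, PRTN3, AZU1, CD14 and the silent genes were named after their values were seen. So were CSF1R, TYROBP, ISG15, IFI35, SAMD9, BST2, DDX41, RNASEH2A and SAMHD1. Some genes of the lists are counted but not reported here by name.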

Additional observations from a re-analysis of the deposited data

How the results depend on the processing

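MNDA had log2 fold changes of -1.58 to -1.42 in the 13 alternative fits. It was chosen for its fall in these same libraries, so its direction there is no separate support. IFI16 kept its call in all 13 alternative fits (adjusted p = 1.56e-06 to 0.00468). PYHIN1 was called in none of the 12 fits that gave it a value, and DESeq2 set its adjusted p to NA. Its log2 fold change ranged from -0.020 to 0.31 with 1 library left out, and among these fits was below 0 only without SPNS2 library 1. At a mean CPM of at least 1 it was not tested.

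DESeq2 called 3 inflammasome genes, 5 interferon receptor and signalling genes and 0 neighbours of the cluster. With 1 library left out, 3 to 4 inflammasome genes, 5 to 8 interferon receptor and signalling genes and 0 to 1 neighbours were called. The cause was not tested. The other lists and the count over all features (2297 to 3260) stayed within 1.5 times.

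Same-numbered libraries did not deviate together (correlations 0.0312, 0.0375 and -0.0193), so the numbers were not taken to pair them. The replicate block called 2723 features, 3 inflammasome genes and 6 interferon receptor and signalling genes. Low counts limit the precision of MNDA and PYHIN1, and AIM2 could not be tested.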
